A study of Mus musculus with 2 samples.

Results

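The promoters described here are those of the genes for the proteins of the cytosolic ribosome in late retinal progenitor cells (RPCs) of the newborn mouse. A gene was a member when the mouse GENCODE annotation of the mm10 build called it protein-coding and its symbol had the form of a ribosomal protein of the large (Rpl) or small (Rps) subunit, with Rplp0, Rplp1, Rplp2 and Rpsa added and with kinases of the Rps6k family and pseudogene names left out. This gave 83 members among 21938 protein-coding genes, 51 of the large and 32 of the small subunit. The rule itself uses gene names and the annotation. A promoter peak was a listed peak with its summit within 1 kb of an annotated start site of the gene. Such a peak was found for 79 of the 83 members in the control list and for 79 of 83 in the Ngn3-OE list.

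Chromatin accessibility was profiled by ATAC-seq, in which the Tn5 transposase inserts adapters into DNA that is free of nucleosomes. Mouse pups received an in vivo electroporation at postnatal day 1 with a control plasmid or with a plasmid that overexpressed Ngn3 (Ngn3-OE), a proneural bHLH transcription factor, and GFP-labelled retinal cells were sorted 2 days later. Each group had 1 library of 50000 sorted cells. The strain, the number of pups pooled and the promoter that drove the plasmids are not given in the sources used here, and the sort selected GFP and not a cell type. With 1 library per group no test of Ngn3-OE was possible. All intervals given here are at the 95% level, and none covers variation between libraries. Those of fold enrichment and tag ratios cover counting error of tags only, and those of shares treat the genes as independent draws. The lists held 117165 distinct peaks in control and 124935 in Ngn3-OE on the assembled chromosomes. All 10 markers of late progenitors (among them Pax6, Rax, Lhx2 and Sox9) had a promoter peak in both lists, as had 3 of 3 rod, 4 of 4 ganglion cell and 2 of 2 astrocyte markers, whereas 0 of 2 vessel and 0 of 3 microglia markers had one. In such bulk libraries fewer cells of a type and less accessible DNA per cell cannot be told apart, and the overexpression of Ngn3 itself cannot be checked in a peak list.

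A ribosome is built from nearly equal numbers of its proteins, so the many genes that encode them, scattered over nearly all chromosomes, are transcribed strongly and together in growing cells. Many of their mRNAs begin with a cytosine followed by a run of pyrimidines, the terminal oligopyrimidine (TOP) element through which nutrient signalling of the TOR pathway controls their translation. Their promoters are known for CpG-rich DNA, sharp start sites at such pyrimidine tracts, and sites for ETS family factors and YY1. In the retina, as elsewhere, they count as housekeeping genes, and many of their introns carry small nucleolar RNAs (snoRNAs) that guide the modification of ribosomal RNA.

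The DNA at the start sites is shown first, since the polypyrimidine start was, by ratio of shares, the sequence feature searched in which these promoters stood furthest from the others. Of the 79 members with a control peak, 19 had a start site annotated exactly at a C followed by 4 pyrimidines, and in 5 of these the window of 80 bases around the start also held the ETS core CCGGAAG. These 5 are printed from 60 bases before the start to 20 bases from it, in the direction of the gene, with the first 5 bases of the transcript and each ETS core, on either strand, in capitals (mm10, RefSeq assembly).
Rpl37, chr15:5116585-5116664, plus strand: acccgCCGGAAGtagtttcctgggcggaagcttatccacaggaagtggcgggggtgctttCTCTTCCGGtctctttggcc
Rpl30, chr15:34443203-34443282, minus strand: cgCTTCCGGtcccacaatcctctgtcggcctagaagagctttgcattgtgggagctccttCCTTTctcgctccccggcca
Rps21, chr2:180257317-180257396, plus strand: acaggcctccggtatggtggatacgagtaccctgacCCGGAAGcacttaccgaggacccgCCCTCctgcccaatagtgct
Rps10, chr17:27635221-27635300, minus strand: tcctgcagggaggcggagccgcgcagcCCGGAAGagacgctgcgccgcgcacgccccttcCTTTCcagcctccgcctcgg
Rpl29, chr9:106429478-106429557, plus strand: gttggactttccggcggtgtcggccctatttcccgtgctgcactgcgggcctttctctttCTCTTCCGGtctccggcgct
In Rpl37 and Rpl29 the last pyrimidines of the start run directly into an ETS core on the opposite strand, so that both features share bases. The highest and the lowest ranking member of the control list also had a polypyrimidine start, and neither window held an ETS core.
Rps13, chr7:116334114-116334193, minus strand: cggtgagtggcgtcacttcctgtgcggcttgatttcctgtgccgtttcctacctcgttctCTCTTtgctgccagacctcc
Rpl4, chr9:64173315-64173394, plus strand: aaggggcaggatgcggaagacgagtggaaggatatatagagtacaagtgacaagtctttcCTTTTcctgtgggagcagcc
In 4 of the 19 the letters TATAA lay between 40 and 20 bases before the polypyrimidine start, 2 of which are shown with TATAA in capitals as well.
Rps2, chr17:24720050-24720129, plus strand: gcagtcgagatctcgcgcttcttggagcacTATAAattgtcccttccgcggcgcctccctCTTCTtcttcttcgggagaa
Rps18, chr17:33955644-33955723, minus strand: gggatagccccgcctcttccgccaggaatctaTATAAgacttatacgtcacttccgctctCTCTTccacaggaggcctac

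Compared with the other protein-coding genes, ribosomal protein genes were more often marked by a promoter peak. The share was 95.2% (Wilson interval 88.3 to 98.1%, 79 of 83) in both lists, against 64.6% of the 21855 others in control and 65.02% in Ngn3-OE. Over all protein-coding genes together it was 64.7% in control and 65.1% in Ngn3-OE. Other lists of genes of protein synthesis gave similar counts. A promoter peak was listed for 77 of 78 mitochondrial ribosomal protein genes, for 19 of 20 genes of translation factors and other TOP mRNAs and for 20 of 20 genes of ribosome biogenesis, in each list. Ribosomal protein pseudogenes, which are mostly processed copies without the promoter of their parent, stood at the other end, with a peak at the annotated start of 14 of 301 (4.65%) in control and 16 of 301 (5.32%) in Ngn3-OE.

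The 4 members without a promoter peak were the same in both lists, namely Rpl10l, Rpl39l, Rpl3l and Rps25. The first 3 are paralogs with restricted expression, Rpl10l and Rpl39l being known from the testis and Rpl3l from heart and skeletal muscle. The nearest listed summit to a start site of Rpl10l was 123 kb away in control and 222 kb away in Ngn3-OE. That of Rpl3l was 3.403 kb away in both lists. Rpl39l had its nearest summit 22.7 kb away in control, and in Ngn3-OE a summit of 4 tags with 3.98-fold enrichment 1.87 kb away, outside the promoter window. The like-named paralogs Rpl22l1, Rpl7l1 and Rps27l had a promoter peak in both lists. The symbol pattern misses Rpl36al, another like-named paralog, which is no member, was counted with the translation factors and TOP mRNAs, and had a promoter peak at percentile 95.2 in control and 91.6 in Ngn3-OE.

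Rps25, a constitutive small subunit protein, was the only member outside these paralogs for which no promoter peak was listed. The lists hold only called peaks, so reads at its start cannot be counted, and nothing about the accessibility of Rps25 is read from this.

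Where a peak was called, ribosomal protein promoters stood above the middle of the field. Fold enrichment is the number of tags at a summit over the local background expected there (each with 1 added), and the strongest promoter summit was taken for each gene. Its median over members was 23.5 in control (quartiles 18.4 and 28.4) and 23.2 in Ngn3-OE (19.2 and 27.5), against 18.8 in both lists for the other genes. Expressed as a rank percentile among the other protein-coding genes with a promoter peak in the same list, the median member stood at 65.9 in control and 64.6 in Ngn3-OE. The members ranged from 11.4 to 99.4 in the control list, while in the Ngn3-OE list they ran from 15.2 to 98.6. A rank above the middle was not particular to this family. The median percentile in control and Ngn3-OE was 70.5 and 70.6 for ribosome biogenesis genes. It was 59.2 and 65.1 for mitochondrial ribosomal protein genes, and 55.7 and 58.8 for translation factors and TOP mRNAs. Against all listed peaks, distal ones included, the median member stood at percentile 94.7 in control and 94.2 in Ngn3-OE, and the median of the other protein-coding promoters at 90.4 and 90.2.

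Weak peaks were rare among the members. The lowest 25% of protein-coding promoters held 4 members in control (5.06%, 1.99 to 12.3%) and 3 in Ngn3-OE (3.797%, 1.30 to 10.6%). Above percentile 50 there were 56 members in control (70.9%, 60.1 to 79.7%) and 60 in Ngn3-OE (75.9%, 65.5 to 84.03%). The upper 10% of promoters, which by construction holds 10% of all promoters with a peak in control and 9.99% in Ngn3-OE, held 10 members in control (12.7%, 7.02 to 21.8%) and 7 in Ngn3-OE (8.86%, 4.36 to 17.2%). Both of these shares were close to the background. The upper 25% held 32 members in control (40.5%, 30.4 to 51.5%), with the whole interval above the 25.1% of all promoters with a peak, and 24 in Ngn3-OE (30.4%, 21.3 to 41.2%), where the interval covered the 25% of all promoters. The members were also more alike than the other genes, whose quartiles of fold enrichment in control were 11.5 and 26.5.

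**Figure D1:**
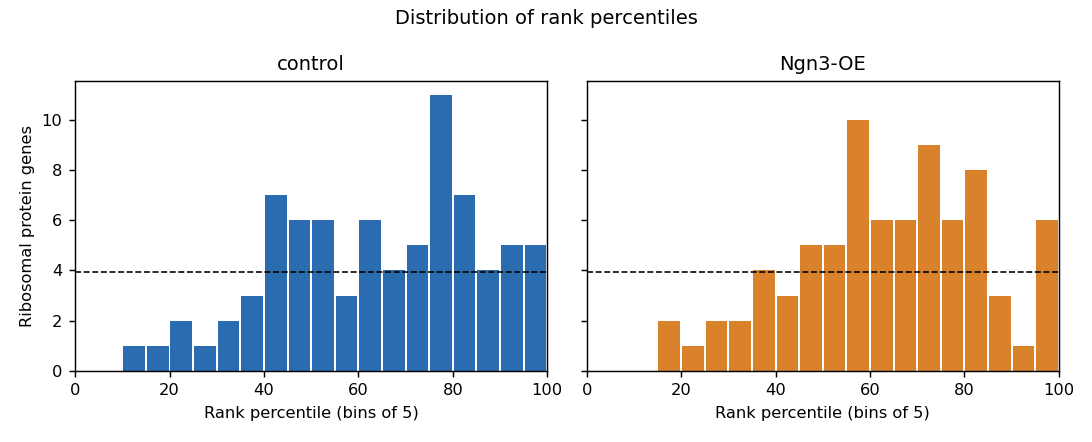
Number of ribosomal protein genes (vertical axis) by rank percentile of fold enrichment among the other protein-coding promoters, in bins of 5 percentiles (horizontal axis), in the control and the Ngn3-OE list; the dashed line marks an even spread over all bins. Bars below percentile 25 sum to 4 genes in control and 3 in Ngn3-OE.

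Breadth was much the same at members and other genes. The peak that held the strongest summit had a median width of 266 bp at members and likewise 266 bp at the other genes of the control list, and of 273 bp against 271 bp in the Ngn3-OE list. It had more than 1 summit in 17.7% of members (10.9 to 27.6%) and in 27.7% of the other genes in control, and in 20.3% (12.9 to 30.4%) against 28.9% in Ngn3-OE, where the interval covered the share of the others. The widest were Rpl7, with 818 bp and 5 summits in control and 825 bp and 5 summits in Ngn3-OE, and Rps19, with 727 bp and 4 summits in control and 748 bp and 3 summits in Ngn3-OE. Both stood below the median member in fold enrichment.

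Summits of members sat close to the start site. The strongest summit lay at a median of -41 bp from the nearest annotated start in control, negative values being before the start, and at -35 bp in the other list, and the median distance in either direction was 49 and 51 bp, against 73 and 75 bp for the other genes. It was within 100 bp of a start site in 74.7% of members (64.1 to 83.0%) against 60.3% of the others in control, and in 73.4% (62.8 to 81.9%) against 59.6% in Ngn3-OE. It was farther than 250 bp in 7 members in control (8.86%, 4.36 to 17.2%) and 8 in Ngn3-OE (10.1%, 5.22 to 18.7%), against 19.3% and 20.3% of the others. The 7 were Rpl10, Rpl4, Rpl10a, Rpl32, Rpl37, Rpl35 and Rpl38, which were also among the 8, together with Rpl13a.

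Among the distant ones, Rpl10 had its strongest summit at -538 bp in the control list and at -540 bp in that of Ngn3-OE. For Rpl4 it lay at -488 and -474 bp, for Rpl38 at 502 and 488 bp, and for Rpl35 at 457 and 456 bp. A weaker summit nearer to the start was listed for Rpl10, 53 and 66 bp away, for Rpl4, 30 and 32 bp away, and for Rpl38, 9 and 11 bp away. The value given for these genes is thus that of a summit some distance from the start and not of the one at the start.

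**Figure D2:**
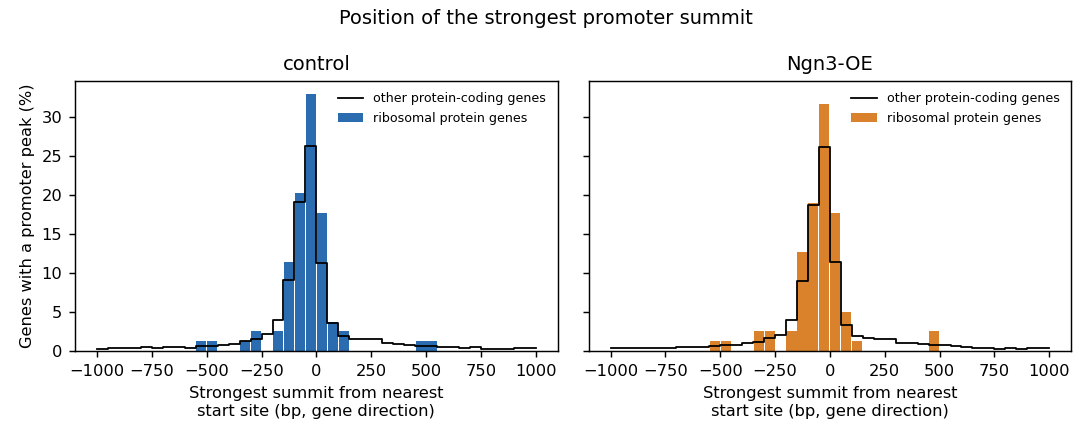
Percent of genes with a promoter peak (vertical axis) by the distance of the strongest promoter summit from the nearest start site, in bp along the gene with negative values before the start and bins of 50 bp (horizontal axis); bars are ribosomal protein genes and the black line is all other protein-coding genes. The bars are higher than the line in the 50 bp on either side of the start and few genes lie beyond 250 bp.

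The 5 members of highest rank in control encode proteins of both subunits. Rps13, a small subunit protein whose peak covered chr7:116334045-116334319, had 43.0-fold enrichment from 110 tags in control (counting interval of the fold 35.4 to 51.8) and 36.9-fold from 90 tags in Ngn3-OE (29.7 to 45.2). Rpl22l1, the paralog of Rpl22, had 39.5-fold from 136 tags in control, and in Ngn3-OE 36.7-fold from 131 tags. Rpl31, with its peak at chr1:39367666-39367984, had 38.4-fold from 135 tags in control, and in Ngn3-OE 40.7-fold from 151 tags, where it was the highest member. The other two were Rpl15, whose start lies within 1 kb of that of Nkiras1 on the opposite strand, with 37.2-fold from 186 tags and 36.4-fold from 191 tags, and Rps26, with 36.3-fold from 78 tags and 39.6-fold from 85 tags. The counting intervals of these 5 overlapped one another in each list, so their order was not resolved at this depth.

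Among the lowest members in control were Rpl4, Rpl19, Rpl7 and Rpl36. Rpl4, a large subunit protein that lines the exit tunnel and whose gene holds 5 annotated snoRNAs and whose strongest peak covered chr9:64172857-64172944 in control, had 7.07-fold enrichment from 8 tags in control (3.498 to 13.2) and 8.75-fold from 10 tags in Ngn3-OE (4.61 to 15.4). Rpl19 had 8.81-fold from 16 tags in control, and in Ngn3-OE 8.28-fold from 16 tags, where it was the lowest. Rpl7 had 10.6-fold in both lists, from 56 and 54 tags respectively, which are more tags than the median member had. Rpl36 had 12.2-fold from 42 tags and 13.3-fold from 44 tags. The intervals of these 4 overlapped one another in each list. As the highest and lowest members were picked by their control values, the distance between them is a description.

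**Figure D3:**
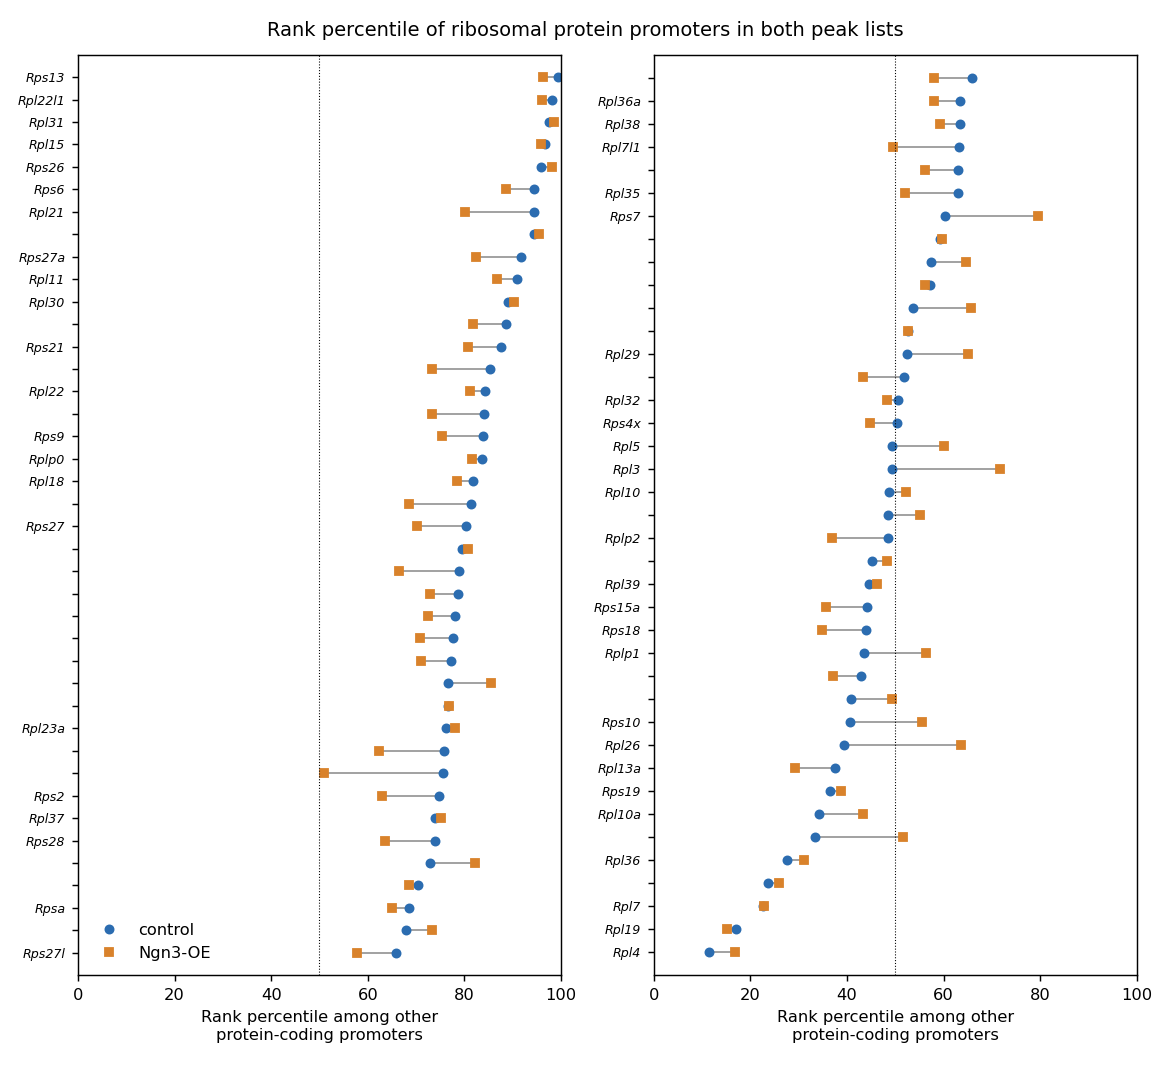
Rank percentile of the strongest promoter peak of each of the 79 ribosomal protein genes with a peak (horizontal axis, 0 to 100) in control (blue circles) and Ngn3-OE (orange squares), with genes ordered by the control value from top left to bottom right and some of those described in the text labelled; a grey line joins the values of a gene and the dotted line marks percentile 50. The order was largely kept, and Rpl26 and Rpl3 show wide gaps.

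Sets within the family were compared by their medians. In control the small subunit had a median fold enrichment of 26.4 over 31 genes and the large subunit 22.7 over 48. In Ngn3-OE these medians were 23.3 and 23.1. The proteins of the acidic stalk, which recruit translation factors to the ribosome, are encoded by Rplp0, Rplp1 and Rplp2. Rplp0, the base of the stalk, had 29.5-fold in control and 28.7-fold in Ngn3-OE. Rplp1 had 16.9-fold in control and 20.7-fold in Ngn3-OE. Rplp2 had 18.3-fold in control and 14.95-fold in Ngn3-OE, and it was the only member whose strongest peak was a different one in each list, the peaks lying at chr7:141447175-141447374 and chr7:141447523-141447783. Rpsa, a small subunit protein also described as a laminin receptor precursor, had 24.4-fold and 23.3-fold.

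The 4 X-linked members stood near the middle of the field. Rpl10, a late-joining protein near the peptidyl transferase centre, stood at percentile 48.6 in control and 52.1 in Ngn3-OE. Rpl36a stood at 63.4 and 58.1, Rpl39 at 44.6 and 46.2, and Rps4x at 50.3 and 44.7. Their median was 49.4 in control and 49.2 in Ngn3-OE, against 68.5 and 65.1 for the 75 autosomal members with a peak. The sex of the pups is not given in the sources used here, and whether the lower rank of so few genes has to do with the X chromosome was not tested. The like-named paralogs with a peak gave percentiles of 98.1 and 96.2 for Rpl22l1, 65.9 and 57.8 for Rps27l, a gene known as a target of the p53 pathway, and 63.2 and 49.6 for Rpl7l1.

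Several members are known for roles beyond the ribosome or for disease. Rps6, the target of the S6 kinases, stood at percentile 94.4 in control and 88.6 in Ngn3-OE. Rpl11 and Rpl5, which together with ribosomal RNA bind Mdm2 when ribosome assembly fails, had different ranks, with 90.9 and 86.7 for Rpl11 and 49.3 and 60.05 for Rpl5. In fold enrichment this was 32.8 (25.4 to 41.7) for Rpl11 against 18.6 (12.8 to 26.3) for Rpl5 in control. The intervals overlapped only at their ends. Such overlap does not measure the difference between the genes, which was not tested. Rps19, the gene most often mutated in Diamond-Blackfan anaemia, stood at 36.4 and 38.8. Rpl22, which is needed for the maturation of some T cells, stood at 84.2 and 81.1, and Rps27a, which is made as a fusion with ubiquitin, at 91.7 and 82.5. Rpl38, whose loss in mice alters the axial skeleton, stood at 63.3 and 59.3.

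Ribosomal protein genes share a genomic setting that the choice by name did not use. In the annotation, 30 of the 83 members (36.1%, 26.6 to 46.9%) carried at least 1 snoRNA gene on their own strand, against 1.05% of the other protein-coding genes. They held 58 snoRNA genes in all, with 5 in Rpl4 and 4 in Rpl13a. All 30 hosts had a promoter peak in both lists, with a median percentile of 70.7 in control and 64.8 in Ngn3-OE, against 63.4 and 63.7 for the 49 members with a peak and no snoRNA. A start site of another gene on the opposite strand lay within 1 kb of a start of 22 members (26.5%, 18.2 to 36.9%) against 19.4% of the other genes, and the interval covered the latter. The 21 of these with a peak had a median percentile of 76.6 in control and 70.3 in Ngn3-OE, against 63.1 and 61.9 for the 58 without such a neighbour. For such a pair a peak cannot be assigned to one gene.

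Sequence features were counted in the 100 bp on each side of the strongest control summit, on both strands, beside the same count over the 14121 other protein-coding promoters with a peak. The ETS core CCGGAAG was present at 27 of 79 members (34.2%, 24.7 to 45.2%) against 14.5% of the others. The YY1 letters AANATGGC were present at 12 (15.2%, 8.91 to 24.7%) against 6.03%. The CREB/ATF palindrome TGACGTCA was present at 6 (7.59%, 3.53 to 15.6%) against 3.19%. The whole interval lay above the share of the others for each of these 3 features. Within 50 bp of the summit ETS was found at 20.3% (12.9 to 30.4%) against 9.28%, but YY1 and CREB/ATF each at 5.06% (1.99 to 12.3%) against 2.24% and 2.47%, where the interval covered the background. The Ngn3-OE list gave 32.9% against 14.6% for ETS and 16.5% against 6.11% for YY1.

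For other elements of housekeeping promoters the interval covered the share of the others. The SP/KLF box GGGCGG was present at 56.96% of members (45.97 to 67.3%) and at 61.7% of the others, the NFY box CCAAT at 26.6% (18.1 to 37.2%) and 32.6%, and the NRF1 letters GCATGCGC at 3.797% (1.30 to 10.6%) and 3.82%. The sequence was less GC-rich at members, with a median of 60.2% GC against 65.2%, while the observed over expected frequency of CpG was higher, at 0.92 against 0.80. The E-box CATCTG, of the kind that proneural bHLH factors such as NGN3 recognise, was present at 6 members (7.59%, 3.53 to 15.6%) and at 7.45% of the others. The SOX letters CCATTGT or CCTTTGT were present at 0 of 79 members, which allows a share of up to 3.797% when the limit is set at 3 counts of 79 and up to 4.64% by the Wilson interval, against 3.63% of the others, so a difference was not detectable with this number of promoters.

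At the start site itself, a C followed by 4 pyrimidines was found at 19 of 79 members (24.1%, 16.0 to 34.5%) against 4.43% of the other genes with a control peak. When the tract could begin within 5 bp of an annotated start, the shares were 51.9% (41.1 to 62.6%) and 30.1%, and with 6 pyrimidines required after the C they were 13.9% (7.96 to 23.2%) and 2.08%. TATAA between 40 and 20 bases before a start was found at 8 members (10.1%, 5.22 to 18.7%) against 2.55%, namely Rpl10, Rpl15, Rpl23a, Rps18, Rps2, Rps27, Rps28 and Rps9. ETS cores lay a median of 20 bp before the start, with 18 of 32 before it and 14 after it. YY1 matches lay a median of 26 bp after the start, and the ATG inside the letters was the annotated start codon at 2 of the 12 members and at 244 of 851 other genes with a match.

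**Figure D4:**
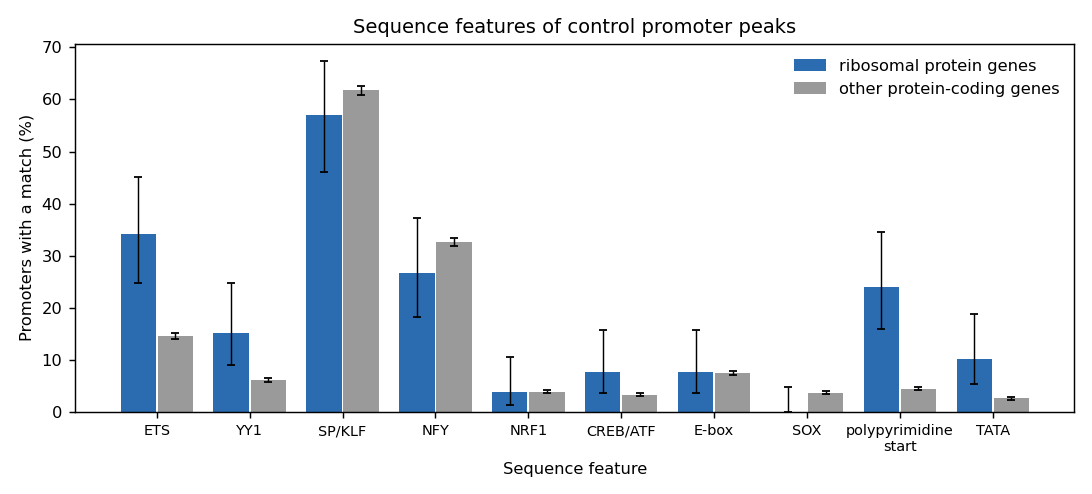
Percent of promoters with a match (vertical axis, from 0) for each sequence feature (horizontal axis) at ribosomal protein genes (blue, 79 promoters) and other protein-coding genes (grey, 14121 promoters) with a control peak; error bars are 95% Wilson intervals, and the TATA and polypyrimidine features are read at annotated start sites while the rest are read within 100 bp of the summit. ETS, YY1, CREB/ATF, polypyrimidine start and TATA stand above the background with their whole interval.

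Within the family, members with an ETS core near the control summit had a median fold enrichment of 23.5 in control and those without one 23.5 as well, while their median tags were 63 and 51. Members with a polypyrimidine start had a median fold enrichment of 21.7 and those without 24.0. The 6 members with an E-box had a median percentile of 47.2 in control and 50.05 in Ngn3-OE, against 68.0 and 65.02 for the 73 without. These medians are descriptions without a test. Counted near the summit and not in the printed windows, an ETS core together with a polypyrimidine start was present at 5 members (Rpl30, Rps10, Rps18, Rps2 and Rps21), ETS alone at 22, the polypyrimidine start alone at 14 and neither at 38. Of the 5 windows printed with an ETS core, 3 belong to these members, and Rpl37 and Rpl29 had no ETS core within 100 bp of the summit. Rps13 at percentile 99.4 and Rpl4 at 11.4 in control both had a polypyrimidine start and no ETS core in the printed window.

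The comparison of Ngn3-OE with control asked whether these promoters moved with the rest of the genome. Tags at each summit, meaning the reads piled up there, were recovered from the deposited fold enrichment and p-value, and the log2 ratio of Ngn3-OE over control was centred on its median over all 13954 protein-coding genes with a promoter peak in both lists. The centred log2 ratio of the 79 members had a median of -0.09 (quartiles -0.17 and 0.11), with 54 below the centre and 25 above it. It ran from -0.56 to 0.57, whereas that of the 13875 other genes ran from -2.43 to 2.19. No member was past 1.5-fold in either direction, and over all promoters 5.28% were higher and 4.88% lower by that much. The promoters of members had more tags than most, however, and among promoters with at least 30 tags in both lists, 0 of 69 members and 1.91% of all promoters were past 1.5-fold. The exact binomial interval of the ratio included the centre at each of the 79 members, while it left out the centre at 3.2% of all promoters.

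The size of the median ratio depended on the scaling. With no scaling between the libraries the median log2 ratio of members was -0.06, with 48 below 0, 26 above 0 and 5 at 0, and with scaling by the lowest background of each list it was -0.03, with 48 below and 31 above. The median of the other genes was 0.00 when centred, 0.03 without scaling and 0.06 with background scaling. Under each of the latter scalings 1 member, Rpl26, was past 1.5-fold.

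**Figure D5:**
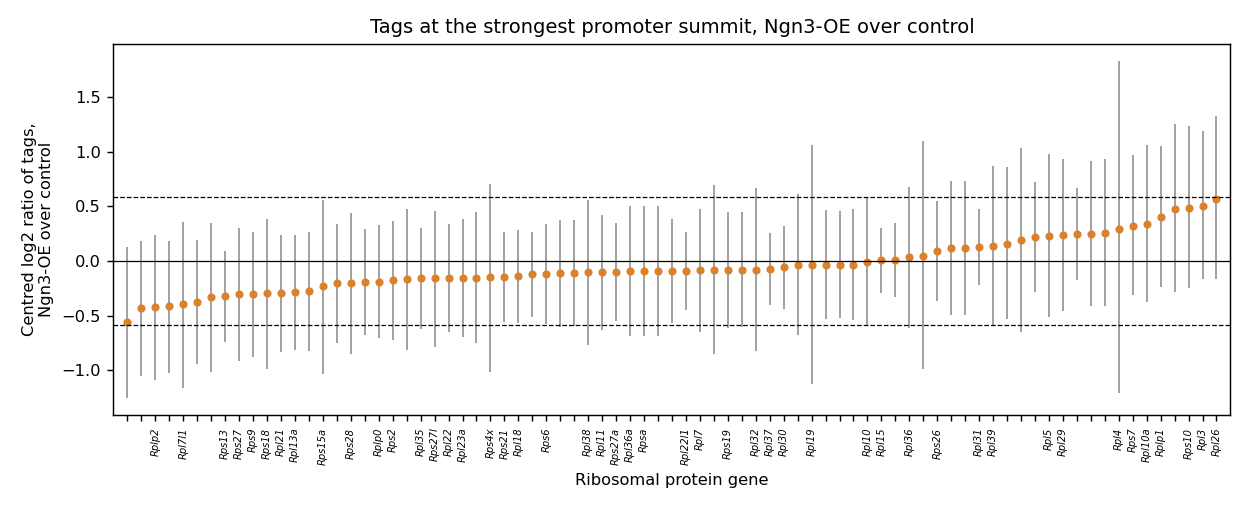
Centred log2 ratio of tags at the strongest promoter summit, Ngn3-OE over control (vertical axis), for each of the 79 ribosomal protein genes with a peak in both lists, ordered by value (horizontal axis, some genes labelled); points are the ratios, grey lines are exact binomial intervals for counting error, the solid line is the median of all shared protein-coding promoters and dashed lines mark 1.5-fold. All points lie between the dashed lines and each grey line crosses 0.

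By rank, 46 members stood lower and 33 stood higher in Ngn3-OE than in control, with a median shift of -2.11 percentiles against 0.23 for the other genes. A rank higher by 10 percentiles or more was seen at 9 members (11.4% of 79), against 13.6% of all shared promoters, and one lower by that much at 13 (16.5%), against 12.7%. Both shares lay near the background. Ranks in the lists were close, with a Spearman correlation of 0.89 over the 79 members and 0.94 over the other genes, a description over genes that share their libraries. The summit of the strongest peak was displaced between the lists by a median of 11 bp at members and 14 bp at the others. Markers of cell types moved between the lists as well. Tags at the strongest promoter summit, summed over the markers, were 141 in control and 198 in Ngn3-OE for rods and 98 and 128 for ganglion cells, with tags and rank higher in Ngn3-OE at 3 of 3 and 4 of 4 markers. For late progenitors the sums were 512 and 450, with tags lower at 8 of 10 markers and rank lower at 6 of 10, and for astrocytes they were 47 and 40, with 1 marker higher and 1 lower. No vessel or microglia marker had a listed promoter peak. The part of these differences in the shift of the ribosomal protein promoters was not tested.

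The largest gain in rank was that of Rpl26, from percentile 39.4 with 27 tags in control to 63.7 with 41 tags in Ngn3-OE, a centred log2 ratio of 0.57 (-0.17 to 1.33). Rpl3, a large subunit protein near the peptidyl transferase centre, went from 49.3 with 33 tags to 71.6 with 48 tags (0.51, -0.16 to 1.19), and Rps7 from 60.2 with 39 tags to 79.6 with 50 tags (0.33, -0.31 to 0.97). Among the members that stood lower, Rpl21 went from 94.3 with 67 tags to 80.1 with 56 tags (-0.29, -0.83 to 0.24) and Rpl7l1 from 63.2 with 36 tags to 49.6 with 28 tags (-0.39, -1.16 to 0.36). Each of these 5 intervals covered the centre, so none of the shifts in rank was resolved from counting error. Members in the upper 25% of the control list had a median shift of -5.71, against -1.002 for the other genes in that range. Between percentile 50 and 75 the shifts were -2.87 and 0.22, and between 25 and 50 they were 3.54 and 0.90. Below percentile 25 they were 1.41, over 4 members, and 1.70. The ranges were formed on the control value, which also enters the shift, so no effect of Ngn3-OE is read from them.

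By fold enrichment the median shift of the subunits had different signs, but by tags it had the same sign. Of the 31 small subunit members 23 stood lower in Ngn3-OE and 8 higher, with a median shift of -6.21 percentiles, while of the 48 large subunit members 23 stood lower and 25 higher, with a median of 0.29. The median centred log2 ratio was -0.12 for the small and -0.07 for the large subunit. When ranked by tags the median shift was -3.31 for the small subunit, with 26 of 31 lower, and -1.06 for the large subunit, with 29 of 48 lower. Genes of 1 library are not replicates of a condition, and the difference was not tested. The comparison lists lay on both sides, with a median shift of 0.60 for mitochondrial ribosomal protein genes (39 up, 38 down), 2.82 for translation factors and TOP mRNAs (12 up, 7 down) and -1.32 for ribosome biogenesis (9 up, 11 down). The 6 members with an E-box near the summit showed no common direction, with Rps10 and Rpl10a higher by 14.8 and 9.09 percentiles in Ngn3-OE and Rpl18, Rps15a and Rps4x among those lower.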

How the data were processed

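Each deposited list is a MACS2 peak list of 1 ATAC-seq library. Per the labels and the study's methods, the authors trimmed reads (Trimmomatic), aligned them to mm10 (Bowtie2), removed duplicates (Picard), mitochondrial (SAMtools) and blacklisted reads (bedtools), kept short fragments, shifted reads for Tn5 (deepTools) and called peaks in each library separately (MACS2). The deposited columns are an integer score (not used), a ratio (fold enrichment at the summit over local background) and −log10 values of p and q (each a −log10 p-value or q-value). Short fragments describe nucleosome-free DNA only, and the values are not normalised between libraries.

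Lines off the assembled chromosomes (159 in control, 150 in Ngn3-OE) were left out, and lines with no summit (1 and 3) took no part in assigning promoters. Lines of the same interval were counted as 1 peak. Tags and background were solved as the whole number that gives both fold enrichment and −log10 p, which worked for 100% of lines within 0.01. Tags are the pileup at a summit, not a read depth, which is unknown here. Start sites came from GENCODE M21 basic transcripts, sequence from RefSeq GRCm38.p6, the same assembly. No 201 bp window around a member's control summit had another copy in the genome with at least 95% identity over 90% of its length (blastn 2.17.0), although 30 of 79 had shorter matches of that identity. Shares have Wilson intervals, tags Poisson intervals (with the background held fixed) and tag ratios exact binomial intervals (scipy 1.17.1). The functions were tested on simulated data. Medians of members within groups are descriptive.

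Genes were named by rule: the 5 highest and 5 lowest members by control percentile, the 3 largest rises and 3 largest falls, members without a peak, the stalk genes and Rpsa, like-named paralogs, X-linked members and a few genes of general knowledge. Distant summits, wide peaks and motif carriers were named after their values were seen. Some genes that the rule selects are not reported here. The members and lists were chosen with earlier results of these data known.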

Additional observations from a re-analysis of the deposited data

How the results depend on the processing

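No paired analysis was possible because each group had 1 library, and no library could be left out. Of 80 alternative values for 20 results, 66 stayed within the interval of the main value (or within 1.5 times for counts), and 14 moved. For medians that interval is taken over genes, which are not replicates, and it served only to sort the alternatives. The median shift of the large subunit was 0.29 by fold enrichment, -1.01 by q and -1.06 by tags, so its sign depended on the ranking. The number of members with a promoter peak stayed between 73 and 80 of 83. The median percentile was 49.96 in control and 50.5 in Ngn3-OE when peaks were ranked by width, 76.35 and 76.27 when genes without a peak were ranked below all others, and was 56.5 in Ngn3-OE when ranked by tags. The share in the upper 25% was 40.5% in control and 30.4% in Ngn3-OE. Within 50 bp of the summit, ETS was found at 20.3%, YY1 at 5.06%, SP/KLF at 43.0% and the E-box at 2.53% of members, as the construction of a narrower window implies. The polypyrimidine start was found at 51.9% when allowed within 5 bp and at 13.9% with 6 pyrimidines. The median shift of the small subunit was -3.31 when ranked by tags. The upper 25%, genes without a peak ranked last and the other pyrimidine rules change what is counted, so those values differ by construction. The cause of the other differences was not tested. The alternatives for the subunits, for overlapping peaks and for promoters with at least 30 tags were chosen after seeing the data. Depth limits the values of single genes: the counting interval of the fold enrichment of Rpl4, with 8 tags, ran from 3.498 to 13.2.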
